A study of Mus musculus with 8 samples.

Results

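The enzymes that attach glucuronic acid, sulfate, acetyl, methyl or glutathione groups to foreign and endogenous compounds were followed in the liver of mice given furan. The set was a fixed list of 40 mouse gene symbols, found on the array through the RefSeq accession of each probe. Of these, 37 had a probe that passed the filter on dim signals and were among the 24921 genes or transcripts tested. No probe carried a RefSeq accession of Ugt1a1, which conjugates bilirubin, or of its relatives Ugt1a5 and Ugt1a9, which are not analysed here, and whether other probes of the shared UGT1 locus bind their transcripts was not tested.

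Liver RNA came from 8 female B6C3F1 mice, a hybrid strain, with 1 mouse on each 1-colour Agilent array. Furan dissolved in corn oil, 8 mg/kg body weight each time, was given to 4 mice (replicates 41, 42, 43 and 44), and corn oil alone, the vehicle, to the other 4 (replicates 2, 3, 4 and 6). Both groups were dosed by gavage for 21 days (3 weeks), and livers were snap frozen 4 hours after the last gavage. The mice were 5 to 6 weeks old at purchase and rested for at least 7 days before the study, and the arrays hold 1 dose of furan at 1 time in 1 sex.

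Conjugation makes compounds more water-soluble, so that they can leave the liver in bile or blood. UDP-glucuronosyltransferases (UGTs) sit in the endoplasmic reticulum and use UDP-glucuronic acid, cytosolic sulfotransferases (SULTs) use the activated sulfate PAPS, and N-acetyltransferases, methyltransferases and glutathione transferases each draw on a cofactor of their own. Furan is a small volatile compound formed in heated food, and the liver oxidises it to a reactive dialdehyde that binds glutathione.

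A level below is the log2 processed intensity of a probe set against the 75th percentile of that array, and a change is the furan mean minus the vehicle mean on that log2 scale. Between 55.1% and 86.2% of the 59305 probe spots of an array were well above background, and the highest share belonged to vehicle replicate 2. All 8 arrays lay on 1 slide. The 6 hepatocyte markers were all measured, limma called 0, also at an unadjusted p under 0.05, and their summed levels were 11.68 to 11.89 on furan arrays and 11.61 to 12.09 on vehicle arrays. Of the 38 listed markers of other cell types, 31 were measured, for cholangiocytes, macrophages, endothelium, stellate cells, lymphocytes, red cells, exocrine pancreas and kidney. Of these limma called 0, with 5 lower at an unadjusted p under 0.05, among them Pecam1 and Stab2 of the endothelium. In the same fit 5931 of all 24921 features had an unadjusted p under 0.05. The summed endothelial level, over all 5 of its markers, was 4.96 to 5.25 on furan arrays and 5.35 to 5.59 on vehicle arrays, without overlap, and its part in the results below was not tested. It adds intensities, so that Stab2, the brightest of the 5 with mean levels of 4.49 with furan and 4.98 with vehicle, weighs most. Pecam1 and Stab2 had changes of -0.39 and -0.48, but Kdr, Lyve1 and Cdh5 changes of -0.12, 0.001 and 0.05. In whole liver, fewer cells of a type and less RNA per cell cannot be told apart.

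Furan exposure was accompanied by higher levels of 5 UGT2 genes and of Ugdh. Levels of 1 UGT2 gene, 2 sulfotransferase genes and 1 acetyltransferase gene were lower. Ugt2b35, Ugt2b37, Ugt2b5, Ugt2b34, Ugt2b38 and Ugdh, which makes UDP-glucuronic acid, rose, while Ugt2a3, Sult1c2, Sult3a1 and Nat2 fell. The largest of these changes were 2.16-fold higher for Ugt2b35 and 2.06-fold higher for Ugdh, against 2.27-fold lower for Sult3a1 and 2.10-fold lower for Sult1c2. None of the 8 minor glutathione transferases passed the test in either direction. Across the 24921 features, 4.18% passed an adjusted p of 0.05 in limma with Benjamini-Hochberg adjustment, 2.87% higher and 1.31% lower. Of the 37 measured members, 10 passed, or 27%, with 6 higher and 4 lower. The share over all features depends on the filter on dim probes. With probes well above background on all 8 arrays, 1733 of 21348 features passed, and again 6 members were higher and 4 lower. The furan and vehicle arrays did not overlap for 14 of the 37 members, and for 18.1% of all features. The median change was 0.14 over the members and -0.09 over all features.

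**Figure D1:**
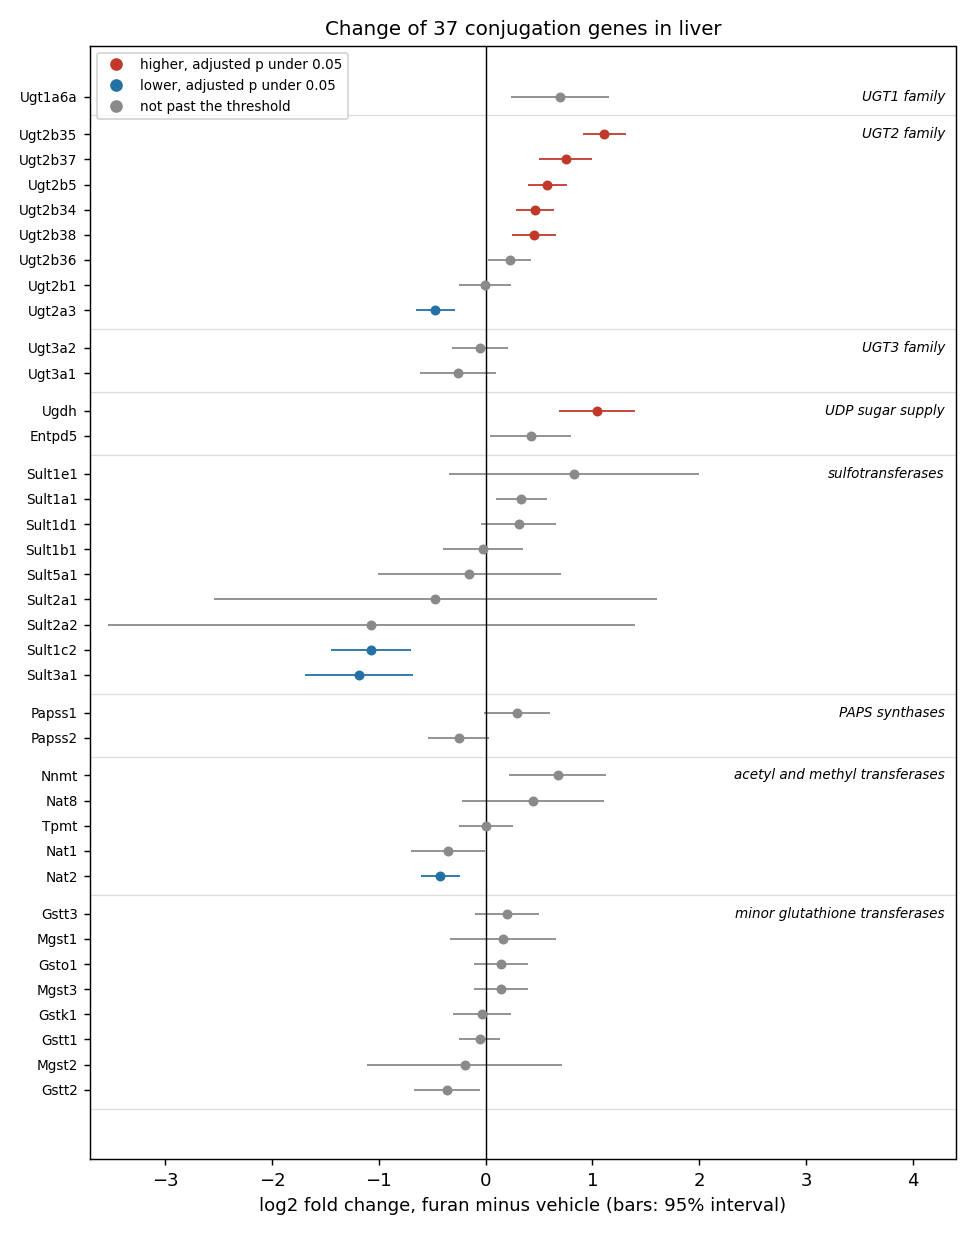
Change of each of the 37 measured conjugation genes on the log2 scale, furan minus vehicle, grouped by enzyme class, with points for the estimate and bars for its 95% interval. The 6 genes that rose all belong to glucuronidation, the 4 that fell are spread over 3 classes, and the widest bars belong to Sult2a2 and Sult2a1.

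The calls rested on few animals. With 1 array left out, the number of members called, higher and lower together, was 2 without furan replicate 41, 4 without furan replicate 42, 1 without furan replicate 43 and 2 without furan replicate 44. It was 8 without vehicle replicate 2, 5 without vehicle replicate 3, 4 without vehicle replicate 4 and 6 without vehicle replicate 6. Of all features, 0.782% to 3.72% passed in these fits, against 4.18% with all 8 arrays, so that calls were lost over the whole array as well. Ugt2b35 was the 1 member that passed in all 8 of these fits. Each of the 4 slide columns carried 1 furan and 1 vehicle array. The furan and vehicle arrays did not overlap for any of the 10 called genes, so their sign within every column was fixed by that. With the column as a block limma called 0 of the 24921 features, of which 4723 had an unadjusted p under 0.05, the 10 called members among them, and the lowest adjusted p of a member was 0.0959. When arrays were shifted to their median instead of their 75th percentile, the median of all features stood at 0.39. Limma then called 0 of the 37 members, with 11 at an unadjusted p under 0.05, against 86 and 2473 of the 24921 features. Ugt2a3 and Nat2 changed sign, at 0.01 and 0.06. Relative to the median of all features their changes were -0.38 and -0.33 with either shift. With no shift 3 members passed, Ugt2b35, Ugt2b37 and Ugdh, and without the filter on dim probes 1, Ugt2b35.

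Of the 6 genes that rose, 5 were UGT2 genes. This family conjugates steroids, bile acids and many drugs. All 8 of its listed members were measured, and 5 rose, 1 fell and 2 did not pass, against 2.87% higher and 1.31% lower over all features. The 8 had a median change of 0.46. Their start sites, from RefSeq on GRCm38.p6, are shown here because the 7 genes of the 2b branch share a stretch of letters near the start. Each line gives the 120 bases before the start of the gene in the direction of transcription. Capitals mark GTTA and TTAAC with any 4 bases between them, a pattern like the binding site of HNF1, a transcription factor of liver cells, that was chosen after the sequences were read.
Ugt2b35, chr5:87000740-87000859, plus strand: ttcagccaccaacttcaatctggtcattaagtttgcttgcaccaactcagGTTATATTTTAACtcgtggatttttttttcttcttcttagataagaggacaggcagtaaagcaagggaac
Ugt2b37, chr5:87254789-87254908, minus strand: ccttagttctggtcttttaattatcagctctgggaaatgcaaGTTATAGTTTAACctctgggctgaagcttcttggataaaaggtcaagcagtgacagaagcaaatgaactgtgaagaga
Ugt2b5, chr5:87140341-87140460, minus strand: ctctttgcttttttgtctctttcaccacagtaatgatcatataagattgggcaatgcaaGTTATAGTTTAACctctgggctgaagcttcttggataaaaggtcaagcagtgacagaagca
Ugt2b34, chr5:86906938-86907057, minus strand: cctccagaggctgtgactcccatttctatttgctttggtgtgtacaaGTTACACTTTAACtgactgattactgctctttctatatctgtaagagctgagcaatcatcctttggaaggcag
Ugt2b38, chr5:87424204-87424323, minus strand: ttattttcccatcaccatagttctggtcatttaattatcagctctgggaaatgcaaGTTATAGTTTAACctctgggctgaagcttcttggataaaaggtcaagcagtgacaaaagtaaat
Ugt2b36, chr5:87092556-87092675, minus strand: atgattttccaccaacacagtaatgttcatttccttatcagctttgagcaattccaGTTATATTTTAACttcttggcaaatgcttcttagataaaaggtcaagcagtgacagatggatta
Ugt2b1, chr5:86926504-86926623, minus strand: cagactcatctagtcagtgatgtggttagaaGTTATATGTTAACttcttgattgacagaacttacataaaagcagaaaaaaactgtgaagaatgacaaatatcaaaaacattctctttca
Ugt2a3, chr5:87337196-87337315, minus strand: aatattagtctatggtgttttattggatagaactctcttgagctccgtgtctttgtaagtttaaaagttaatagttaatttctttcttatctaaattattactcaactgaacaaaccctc

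The pattern was searched on both strands in the 300 bases from 250 before to 50 after each start. It stood 61 to 89 bases before the start in the 2b genes. The closest stretch in the window of Ugt2a3 differed from the pattern by 1 letter, so that all 8 UGT2 windows come within 1 letter of it. Of all 32851 windows 0.189% held the pattern and 2.96% came within 1 letter. Since the pattern was written from these sequences, its presence in them was fixed by that choice and is a description. Among the 33 members with a window it was also found in Ugt3a1. Ugt2b36 and Ugt2b1, which did not pass the test, hold it as well. The 120 bases shown were also aligned in pairs, with gaps allowed. Those of Ugt2b37 and Ugt2b38 agreed at 102 bases, those of Ugt2b5 and Ugt2b38 at 96, and those of Ugt2b35 and Ugt2b38 at 72. The lowest number was 60, for Ugt2b35 with Ugt2b1 and with Ugt2a3. Another pair of patterns was searched in the same way. The antioxidant response core TGACNNNGC, bound by NRF2 with a small Maf protein, was in 12.4% of windows and in no UGT2 window. The dioxin receptor core GCGTG was in 32.4% of windows and likewise in none of the 8. As several of these starts are alike in sequence, the 8 windows are not independent of each other, and binding of either factor was not tested.

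Ugt2b35 had levels of 4.00, 4.15, 4.04 and 4.06 on the furan arrays of replicates 41 to 44, against 2.79, 3.02, 3.02 and 2.97 on the vehicle arrays of replicates 2, 3, 4 and 6. Every furan animal lay above every vehicle animal, with a gap several times the spread within either group. The means were 4.06 ± 0.06 with furan and 2.95 ± 0.11 with vehicle (SD, n = 4 each), a change of 1.11 ± 0.09 (SE, limma adjusted p = 0.00306). A second probe for Ugt2b35 read 0.87, 0.82, 1.07 and 0.93 on furan arrays and -0.23, -0.32, -0.19 and -0.22 on vehicle arrays. Its groups did not overlap either, and its change was 1.16 ± 0.09 (limma adjusted p = 0.00428 among all probes fitted singly). Without 1 array the adjusted p of Ugt2b35 lay between 0.00417 and 0.0201.

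Ugt2b37 measured 4.82, 5.00, 5.09 and 5.11 on furan arrays and 4.16, 4.44, 4.16 and 4.25 on vehicle arrays. The lowest furan value, of replicate 41, was above the highest vehicle value, of replicate 3. Its change was 0.75 ± 0.11, or 1.68-fold higher (limma adjusted p = 0.0150). Leaving out furan replicate 42, 43 or 44 ended the call (adjusted p = 0.0508, 0.0567 and 0.0513), with changes between 0.72 and 0.81 over the 8 fits.

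Ugt2b5 had levels of 7.23, 7.20, 7.20 and 7.18 on furan arrays and 6.54, 6.72, 6.65 and 6.57 on vehicle arrays. The 4 furan animals spanned 0.05 and the groups did not overlap. The change was 0.58 ± 0.08 (limma adjusted p = 0.0128). It missed the threshold when furan replicate 41 or 43 was left out (0.0503 and 0.0513), with changes between 0.55 and 0.61 over the 8 fits.

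Ugt2b34 read 6.35, 6.43, 6.37 and 6.45 on furan arrays, against 5.85, 5.96, 5.94 and 6.00 on vehicle arrays. Ugt2b38 read 8.03, 8.04, 8.14 and 8.12 on furan arrays, against 7.53, 7.79, 7.64 and 7.57 on vehicle arrays. In both genes every furan animal lay above every vehicle animal. The changes were 0.46 ± 0.08 for Ugt2b34 (limma adjusted p = 0.0225) and 0.45 ± 0.09 for Ugt2b38 (0.0336), or 1.38-fold and 1.37-fold higher. Of the 8 fits without 1 array, Ugt2b34 passed only without vehicle replicate 2 (adjusted p = 0.0367, up to 0.0711 in the others) and Ugt2b38 only without vehicle replicate 3 (0.0468, up to 0.102 in the others). The changes themselves stayed between 0.43 and 0.48 for Ugt2b34 and between 0.42 and 0.51 for Ugt2b38. With the slide row as a block Ugt2b38 had an adjusted p of 0.0522.

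Ugt2a3, the 1 measured member of the 2a branch, went the other way. It had levels of 5.01, 5.06, 4.93 and 4.98 on furan arrays and 5.36, 5.53, 5.50 and 5.49 on vehicle arrays. The highest furan value stayed below the lowest vehicle value. The change was -0.47 ± 0.08, or 1.39-fold lower (limma adjusted p = 0.0237), and it passed without vehicle replicate 2 (0.0265) but in none of the other 7 fits without 1 array, in which the adjusted p reached 0.0778. Its change lay between -0.51 and -0.45 over the 8 fits.

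The other two UGT2 genes did not pass. Ugt2b36 measured 6.35 to 6.48 on furan arrays and 6.03 to 6.26 on vehicle arrays, without overlap, with a change of 0.23 and a 95% interval of 0.03 to 0.43 (limma adjusted p = 0.170). Ugt2b1 measured 3.59 to 3.90 on furan arrays and 3.54 to 3.80 on vehicle arrays, with a change of -0.01 and an interval of -0.25 to 0.24. The groups of Ugt2b1 overlapped. Close paralogues can share probe sequence, and which of the UGT2 transcripts each probe bound was not tested.

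**Figure D2:**
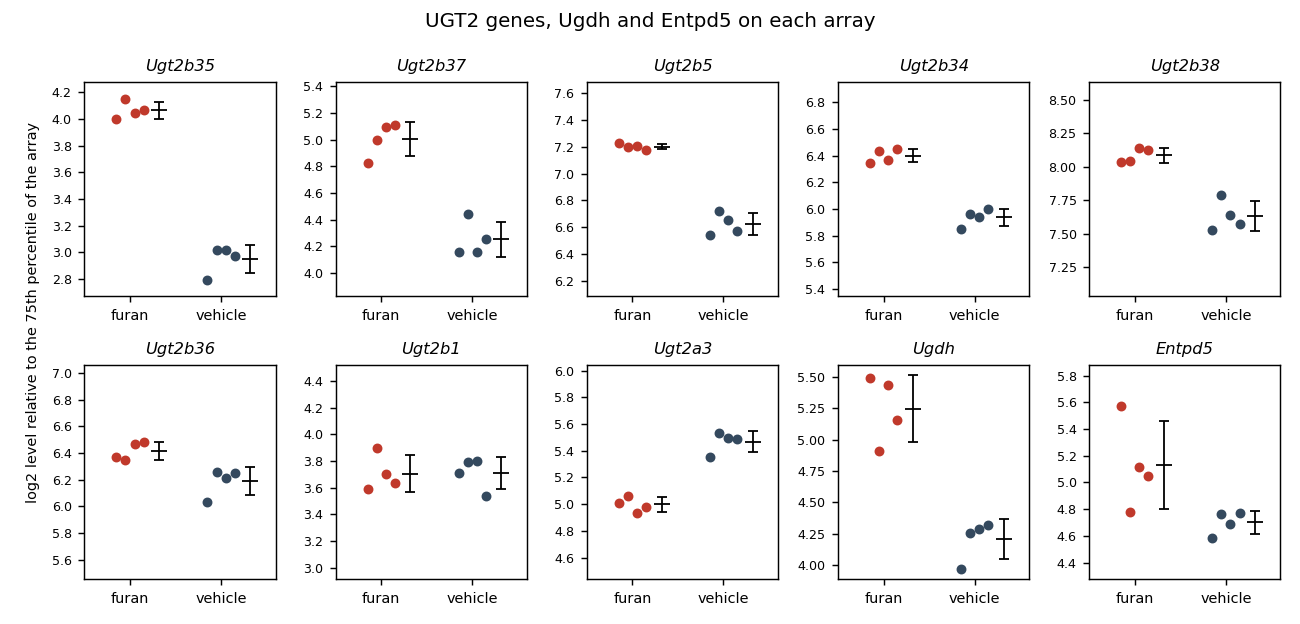
Level of the 8 UGT2 genes, Ugdh and Entpd5 on each array, as log2 intensity relative to the 75th percentile of the array, with 1 point per animal, furan on the left and vehicle on the right of each panel, and the mean with SD beside the points. Each panel has its own axis range. The furan and vehicle points are separate in every panel but that of Ugt2b1, and lie lower with furan in that of Ugt2a3 alone.

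The 8 UGT2 genes are neighbours. On chromosome 5 of GRCm38.p6 they form, with Ugt2a1, Ugt2a2 and the sulfotransferase genes Sult1b1, Sult1d1 and Sult1e1, a run of 13 protein-coding genes, of which 11 are members. Within this run 5 members rose, 1 fell and 5 did not pass, against 2.87% higher and 1.31% lower over all features. These calls are the UGT2 calls already counted above. Ugt2a1, no member and named after its values were seen, had a change of -0.29 ± 0.18 (limma adjusted p = 0.342). Its mean levels were low, at -4.15 with furan and -3.86 with vehicle, and Ugt2a2 was not tested. Ugt2a3, which fell, lies between Ugt2b37 and Ugt2b38, which both rose. Ugt2b1, with a change of -0.01, lies between Ugt2b34 and Ugt2b35, and the 3 sulfotransferase genes at the other end had changes of -0.02 for Sult1b1, 0.31 for Sult1d1 and 0.83 for Sult1e1, none past the test.

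**Figure D3:**
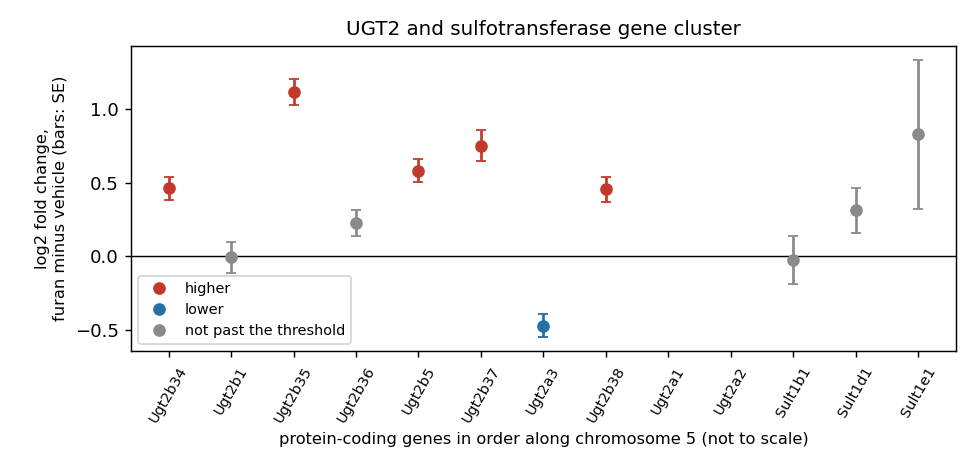
Change on the log2 scale, furan minus vehicle, of the member genes in the UGT2 and sulfotransferase cluster, in their order along chromosome 5 and not to scale, with bars for the SE. The 5 genes that rose are interrupted by Ugt2b1 and Ugt2b36, which did not pass, and by Ugt2a3, which fell, and no value is drawn for Ugt2a1 and Ugt2a2, which are no members.

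The remaining UGTs were few. Ugt1a6a, a phenol-conjugating enzyme of the UGT1 locus, read -1.62, -1.66, -1.94 and -1.66 on furan arrays and -2.77, -2.64, -2.39 and -1.87 on vehicle arrays. Vehicle replicate 6 fell inside the furan range and the other 3 vehicle animals below it. The change was 0.70 ± 0.20 and did not pass (limma adjusted p = 0.0879), except without vehicle replicate 6, where it was 0.88 (0.0456). Ugt3a1 and Ugt3a2, whose human counterparts use UDP sugars other than UDP-glucuronic acid, had changes of -0.26 and -0.05 (adjusted p = 0.327 and 0.789). Of the UGT1 genes that are no members, Ugt1a6b and Ugt1a10 were tested, both named after their values were seen, and had changes of -0.04 ± 0.10 and 0.13 ± 0.13 (limma adjusted p = 0.806 and 0.522). Ugt1a6a thus had the largest change of the 3 UGT1 genes measured, none of which passed. Its probe was far dimmer than that of Ugt1a6b, with mean levels of -1.72 with furan and -2.42 with vehicle, against 8.63 and 8.68. Which transcripts of the shared UGT1 locus each of these probes bound was not tested. With quantile normalization the change of Ugt1a6a was 1.27 (limma adjusted p = 0.318).

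Glucuronidation needs UDP-glucuronic acid, which UDP-glucose dehydrogenase, the product of Ugdh, forms from UDP-glucose. Ugdh had levels of 5.49, 4.91, 5.44 and 5.16 on furan arrays and 3.97, 4.25, 4.29 and 4.32 on vehicle arrays. The lowest furan animal, replicate 42, was still above the highest vehicle animal, replicate 6. The means were 5.25 ± 0.27 with furan and 4.21 ± 0.16 with vehicle (SD, n = 4 each), a change of 1.04 ± 0.15 (limma adjusted p = 0.0166). It was lost when furan replicate 41, 43 or 44 was left out (adjusted p = 0.0524, 0.0599 and 0.0513), and the change lay between 0.96 and 1.16 over the 8 fits. Within the 4 slide columns the difference was between 0.59 and 1.52. The start of Ugdh, also on chromosome 5, is shown because it held the antioxidant response core on both strands, at 132 and 94 bases before the start. The line gives the 150 bases before the start on GRCm38.p6 with the matches in capitals, and the match at 94 overlaps the dioxin receptor core.
Ugdh, chr5:65435843-65435992, minus strand: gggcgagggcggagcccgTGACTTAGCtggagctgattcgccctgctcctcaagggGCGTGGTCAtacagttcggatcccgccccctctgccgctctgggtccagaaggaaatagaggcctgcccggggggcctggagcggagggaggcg

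Of the 33 members with a window 2 held this core, Ugdh and Mgst1, against 12.4% of all windows. Entpd5 encodes an endoplasmic reticulum enzyme that splits UDP, a product of the glucuronosyltransferase reaction. It measured 4.78 to 5.57 on furan arrays and 4.58 to 4.77 on vehicle arrays, and its groups did not overlap. The change of 0.42 ± 0.16 did not pass (limma adjusted p = 0.172), nor did that of 0.61 ± 0.15 from its second probe (0.0737).

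Of 12 measured genes for the supply and transport of cofactors that are not members, none passed in limma, against 4.18% of all features. The unadjusted p of 4 was under 0.05, with 3 of these higher, as was that of 5931 of all 24921 features. The smallest adjusted p were those of Slc35d1, which carries UDP-glucuronic acid into the endoplasmic reticulum, at a change of 0.43 ± 0.10 (limma adjusted p = 0.0600), and of Bpnt1 and Bpnt2, which break down the byproduct of sulfation, at 0.43 ± 0.11 (0.0666) and 0.26 ± 0.08 (0.113). Slc26a1, a sulfate transporter, followed with -0.29 ± 0.11 (0.164). The median change over the 12 was 0.01, against -0.09 over all features.

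Sulfotransferases transfer sulfate from PAPS to hydroxyl and amino groups. Of 9 measured, 2 fell, 7 did not pass and 0 rose, against 1.31% lower and 2.87% higher over all features. The median change of the 9 was -0.15. Sult1c2, of a subfamily that sulfates phenolic compounds in humans, had levels of 2.46, 1.90, 2.36 and 2.37 on furan arrays and 3.02, 3.51, 3.39 and 3.46 on vehicle arrays. All 4 furan animals lay below all 4 vehicle animals. The change was -1.07 ± 0.16 (limma adjusted p = 0.0178). Without 1 array the call held without furan replicate 42 (0.0411) and vehicle replicate 2 (0.0149) and was lost in the other 6 fits, in which the adjusted p lay between 0.0503 and 0.0590, with changes between -1.18 and -0.95 over the 8.

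Sult3a1, which in mice sulfates amines, had levels of 2.17, 2.15, 1.69 and 2.50 on furan arrays and 3.37, 3.66, 3.39 and 2.83 on vehicle arrays. The groups did not overlap, and furan replicate 44 and vehicle replicate 6 lay closest to each other. The means were 2.13 ± 0.33 with furan and 3.31 ± 0.35 with vehicle (SD, n = 4 each), a change of -1.18 ± 0.22 (limma adjusted p = 0.0302). Of the 8 fits without 1 array, only that without vehicle replicate 6 kept the call (0.0424), and the adjusted p in the others lay between 0.0515 and 0.0859. The change lay between -1.34 and -1.04 over the 8 fits.

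The hydroxysteroid sulfotransferases Sult2a1 and Sult2a2, of a family that acts on bile acids and adrenal steroids, varied more between animals than between groups. Sult2a2 read 2.07, -0.89, -0.69 and 2.30 on furan arrays and -0.61, 1.68, 2.64 and 3.35 on vehicle arrays, a span of 18.95-fold over the 8 animals. Sult2a1 read -0.53, -3.63, -2.76 and -0.41 on furan arrays and -2.84, -1.88, -0.80 and 0.05 on vehicle arrays. In both genes furan replicates 42 and 43 and vehicle replicate 2 were the 3 lowest animals, and the groups overlapped. The change was -1.07 ± 1.07 for Sult2a2 and -0.47 ± 0.90 for Sult2a1 (limma adjusted p = 0.526 and 0.748), with 95% intervals of -3.53 to 1.40 and -2.55 to 1.61. Sult2a6, no member and named after its values were seen, read 2.47, -0.66, -0.04 and 2.84 on furan arrays and 0.42, 2.31, 2.72 and 3.73 on vehicle arrays. The same 3 animals were lowest in Sult2a6. This order was not shared by the whole family. Sult2a7, likewise no member and named after its values were seen, read 1.56, 2.46, 0.89 and 1.25 on furan arrays and 0.72, 1.43, 0.21 and 0.84 on vehicle arrays, highest in furan replicate 42, with a change of 0.74 ± 0.37 (limma adjusted p = 0.263). Sult2a8 differed between the groups without overlap and is described with the genes outside the set, and whether the probes of these paralogues bind each other's transcripts was not tested.

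Sult1a1, the main phenol sulfotransferase, had levels of 7.90 to 8.06 on furan arrays and 7.45 to 7.85 on vehicle arrays. The groups did not overlap, and the change of 0.34 ± 0.10 did not pass (limma adjusted p = 0.104), although it did with trend and robust (0.0460). Its second probe gave 0.33 ± 0.11. The estrogen sulfotransferase gene Sult1e1 was well above background on 4 furan arrays and on 2 of 4 vehicle arrays. It measured -3.56 to -2.79 on furan arrays and -5.02 to -2.92 on vehicle arrays, with a change of 0.83 ± 0.51 (adjusted p = 0.332). Sult1d1, which sulfates dopamine in mice, and Sult1b1, which acts on thyroid hormone, had changes of 0.31 ± 0.15 and -0.02 ± 0.16, and the orphan sulfotransferase Sult5a1 one of -0.15 ± 0.37. The PAPS synthase genes Papss1 and Papss2, which make the sulfate donor, had changes of 0.29 ± 0.14 and -0.25 ± 0.12 (adjusted p = 0.230 and 0.257).

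**Figure D4:**
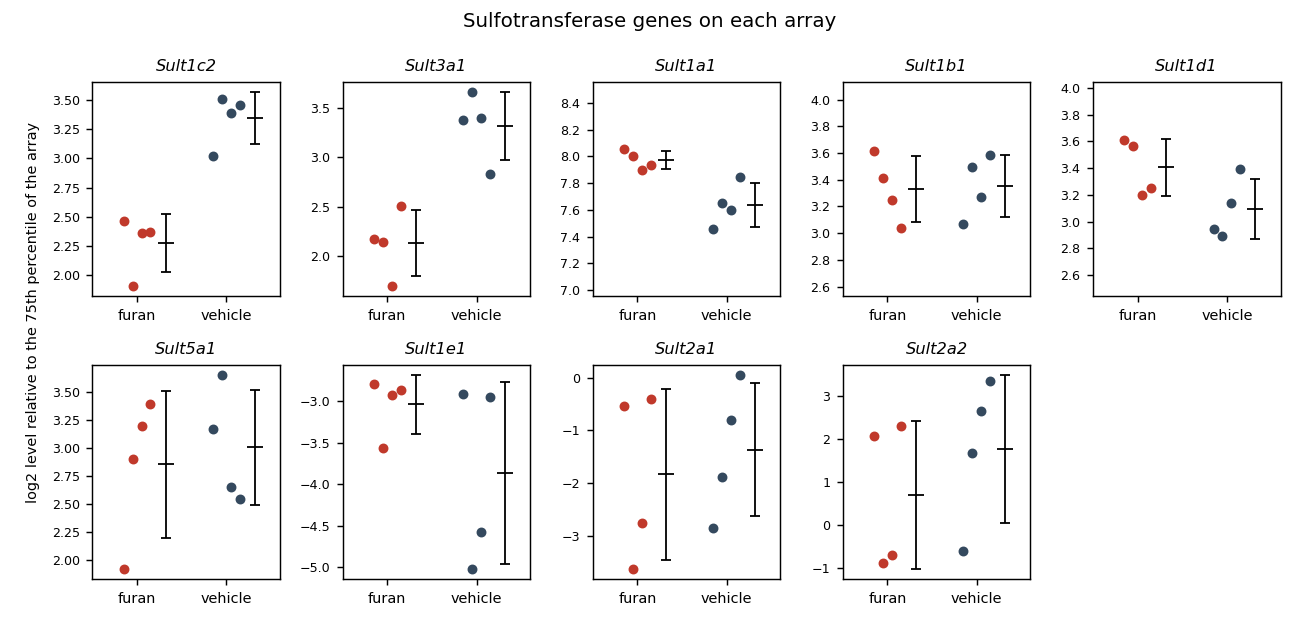
Level of the 9 sulfotransferase genes on each array, as log2 intensity relative to the 75th percentile of the array, with 1 point per animal, furan on the left and vehicle on the right of each panel, and the mean with SD beside the points. Each panel has its own axis range. Sult1c2 and Sult3a1 are lower on every furan array, Sult1a1 is higher on every furan array without passing the test, and Sult2a1 and Sult2a2 spread widely in both groups.

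Among the 5 acetyl and methyl transferases 1 fell and 4 did not pass, against 1.31% lower over all features. Nat2, an arylamine N-acetyltransferase, had levels of 1.18, 1.01, 1.09 and 1.08 on furan arrays and 1.43, 1.58, 1.52 and 1.52 on vehicle arrays. The groups were separate, with a change of -0.42 ± 0.08, or 1.34-fold lower (limma adjusted p = 0.0302). It passed without vehicle replicate 2 (0.0368) and in none of the other 7 fits without 1 array, in which the adjusted p reached 0.0902, with changes between -0.45 and -0.40 over the 8. The related Nat1 had a change of -0.35 ± 0.15 (0.203), which turned to 0.35 with quantile normalization, 0.01 with normexp, 0.06 in the authors' value table and 0.13 with a median shift.

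Nnmt, which methylates nicotinamide, measured 4.17 to 4.76 on furan arrays and 3.58 to 4.21 on vehicle arrays. Furan replicate 41 lay below vehicle replicate 6, and the change of 0.68 ± 0.20 did not pass (limma adjusted p = 0.0923), except with trend and robust (0.0411). Nat8, whose human counterpart acetylates cysteine conjugates on the way to mercapturic acids, had a change of 0.45 ± 0.29 (0.350). The thiopurine methyltransferase gene Tpmt had a change of 0.01 ± 0.11, with a 95% interval of -0.25 to 0.26.

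The minor glutathione transferases, of the theta, kappa, omega and membrane-bound classes, link glutathione to reactive compounds or act as peroxidases. None of the 8 passed in limma (1, Gstt2, before adjustment, as did 5931 of all 24921 features). Their changes lay between -0.36 and 0.20, and the median was 0.05. Gstt2 measured 4.59 to 4.94 on furan arrays and 4.96 to 5.44 on vehicle arrays, the only member of this class whose groups did not overlap. Its change of -0.36 ± 0.13 had a limma adjusted p of 0.164, and with normexp and in the authors' value table it was -0.48 and passed (0.0265 and 0.0275). Gstt3, Mgst1, Gsto1 and Mgst3 had changes of 0.20, 0.16, 0.15 and 0.14, and Gstk1, Gstt1 and Mgst2 changes of -0.04, -0.05 and -0.20. The 95% interval was -0.25 to 0.14 for Gstt1 and -1.11 to 0.71 for Mgst2, which was well above background on 4 furan arrays and 3 of 4 vehicle arrays.

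Conjugation genes outside the set were also listed. Of these 40 genes 27 were tested, 2 fell and 0 rose, against 1.31% lower and 2.87% higher over all features. The median change of the 27 was -0.11. Sult2a8, which acts on bile acids in mice, read 6.60, 6.70, 6.55 and 6.43 on furan arrays and 7.22, 7.34, 6.98 and 7.03 on vehicle arrays, without overlap, a change of -0.57 ± 0.11 (limma adjusted p = 0.0347). Nat8f2 fell by 0.83 ± 0.16 on the log2 scale (0.0365), while Nat8f1, at -0.39 ± 0.10 (0.0652), and Comtd1, at 0.29 ± 0.08 (0.0727), did not pass. Of 6 measured genes that undo conjugation, 1 rose, against 2.87% higher over all features. It was Gusb, which encodes beta-glucuronidase, at 0.50 ± 0.11 (0.0485). Those next closest to the threshold, Acy1, Dpep1 and Arsa, had adjusted p of 0.216, 0.329 and 0.393. The Sult2a8, Nat8f2 and Gusb calls were each lost in all 8 fits without 1 array, with adjusted p of 0.0564 to 0.1003, 0.0529 to 0.0980 and 0.0688 to 0.130, and that of Gusb also with the slide row as a block (0.0700).

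Of 17 genes that regulate conjugation enzymes in liver, all measured, 2 rose and 0 fell, against 2.87% higher and 1.31% lower over all features. The median change of the 17 was 0.05. Nfe2l2, which encodes NRF2, read 4.21, 3.50, 3.72 and 3.68 on furan arrays and 2.93, 3.02, 3.17 and 3.03 on vehicle arrays. The groups did not overlap, and the change was 0.74 ± 0.16 (limma adjusted p = 0.0429). Foxa1, a liver pioneer factor, had a change of 0.41 ± 0.08 (0.0415), and the nuclear receptor genes Hnf4a and Nr1i3 had changes of 0.31 ± 0.09 (0.0859) and -0.52 ± 0.17 (0.125), neither past the threshold. Without 1 array neither call held, at adjusted p of 0.0628 to 0.106 for Nfe2l2 and 0.0632 to 0.107 for Foxa1. Both calls were also lost with the slide row as a block (0.0579 for Nfe2l2 and 0.0567 for Foxa1) and with quantile normalization (0.0551 and 0.0902), and that of Foxa1 with normexp (0.0535). All 5 calls on these genes outside the set, those of Sult2a8, Nat8f2, Gusb, Nfe2l2 and Foxa1, were lost with the median shift, with no shift, without the filter on dim probes, with treat against 1.5-fold and with the slide column as a block. That of Gusb was also lost when every gene was read as the mean of its probes (limma adjusted p = 0.0527), although its own change stayed at 0.50.

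The scaling of the arrays shifted the changes of the called genes. All 10 kept their sign under the 75th percentile shift, quantile normalization, normexp, no shift and the authors' value table. Ugt2b35 had a change of 1.02 with quantile normalization, 1.00 with normexp and 1.24 with no shift, and of 1.02 in the authors' value table. The median shift and no shift each add the same amount to the change of every feature, so that the changes relative to the median of all features stay the same.

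**Figure D5:**
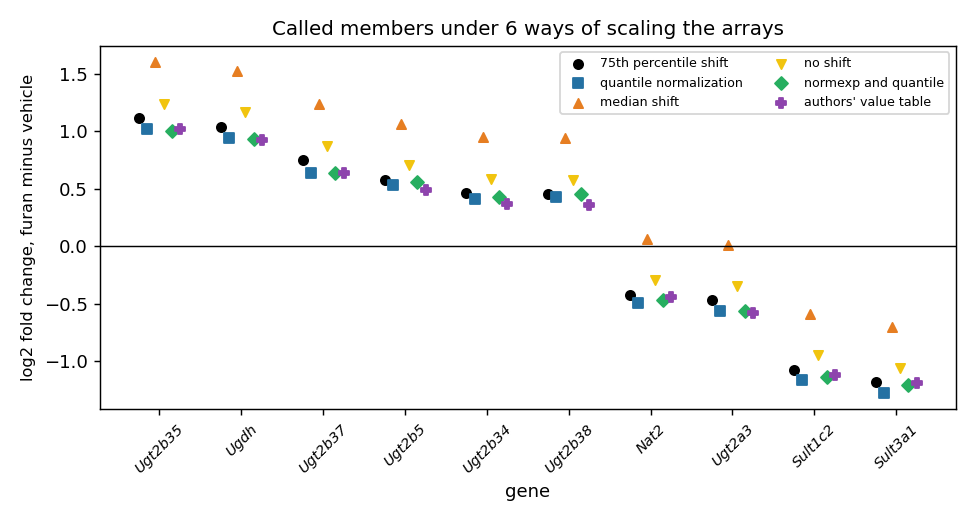
Change on the log2 scale, furan minus vehicle, of the 10 called genes under 6 ways of scaling the arrays, with 1 symbol for each way. The upward triangles of the median shift lie above the other symbols for each gene and put Ugt2a3 and Nat2 just above 0, while the other 5 ways keep the same sign for all 10.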

How the data were processed

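Per the file headers, the scanner files hold 1-colour fluorescence intensity read with Agilent Feature Extraction 11.0.1.1, both as a background-subtracted processed intensity and as median intensities of spot and local background. The authors deposited a value table in log2 units. How it was normalized is not stated in the sources used here. The column medians were 6.53 to 6.58 for furan and 6.54 to 6.74 for vehicle, and each column correlated across probes with the log2 median intensity of its array at 0.998 or more. RNA was extracted from frozen liver, amplified and labelled with Cy3, per the labels' protocols.

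Left out were 3671 control spots of the 62976 on each array and the 128 to 315 spots marked as outliers. No spot was saturated. From the log2 processed intensity the 75th percentile of each array was subtracted. Probes well above background on at least 4 of 8 arrays were kept, and the brightest of these stood for its gene. Symbols came from the probes' RefSeq accessions through a GRCm38.p6 table, for 27235 of 28685 such probes. Furan was compared with vehicle over all 24921 features using limma 3.58.1 (lmFit, eBayes) under R 4.3.3. Tests were 2-sided, Benjamini-Hochberg adjusted, with a threshold of 0.05. A randomized block design is mentioned in the labels, but the blocks of the animals are not, and the model held the group alone. The fit was tested on simulated data. Start-site windows were searched in Python 3.11.15, and the 120 bases before the UGT2 starts were aligned pairwise with Biopython 1.88. The number of arrays limits the precision.

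The members, the other gene lists and the tests were chosen with earlier results of these data known. Named were all 40 members, and up to 4 genes of each other list with the smallest adjusted p. Values per array are given for the members called or changed at least 2-fold, and also for Ugt1a6a and Sult2a1. As alternatives, the scaling (quantile, median shift, none), the background step (normexp, offset 50, on the median spot intensity), the source (the authors' table), the filter (none, or all 8 arrays), the marked spots (kept), the probes of a gene (mean, or each singly), the variance model (trend and robust, or array weights), the slide position (row or column as a block), the arrays (leaving out 1 at a time) and the threshold (adjusted p under 0.01, or treat against 1.5-fold) were changed singly.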

Additional observations from a re-analysis of the deposited data

Results flagged for a closer look

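The levels of 4 genes each had 1 animal that stood apart from the other 3 of its group by more than Dixon's critical value for 4, out of 74 groups examined, and chance alone flags about 1 in 20. Furan replicate 43 had the lowest Ugt1a6a level of its group, -1.94, against -1.66 to -1.62 in the other furan animals. Nnmt in furan replicate 41 was 4.17, against 4.71 to 4.76. In vehicle replicate 4 Tpmt was 3.92, against 4.21 to 4.24, and in vehicle replicate 6 Mgst3 was 3.23, against 2.87 to 2.93. None of these 4 genes passed the test of furan against vehicle.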

How the results depend on the processing

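The median of all features was -0.09 with the 75th percentile shift, 0.39 with a median shift, 0.03 with no shift, 0.05 with quantile normalization, 0.02 with normexp and 0.01 in the authors' value table, and changes are read relative to it. Among the 10 called genes the sign changed only for Ugt2a3 (0.015) and Nat2 (0.063), both with the median shift, over all alternatives run. The 1041 features called became 86 with the median shift, 261 with no shift, 1671 in the authors' value table, 163 without the filter on dim probes, 1733 with the filter on all 8 arrays, 2001 with trend and robust, 2068 with array weights, 101 at an adjusted p under 0.01, 22 with treat against 1.5-fold and 0 with the slide column as a block. In those that moved the member counts, 0 were higher and 0 lower with the median shift, the column block and treat, 3 higher and 0 lower with no shift, and 1 higher and 0 lower both without the filter and at an adjusted p under 0.01. The other settings on all 8 arrays gave 5 to 8 higher and 4 or 5 lower. Leaving out 1 array gave 195 to 927 features, 1 to 5 members higher and 0 to 3 lower, which has fewer animals by construction. The share of calls that were higher was 68.6% in the main setting and 98.8% with the median shift, 88.1% with no shift and 81.2% at an adjusted p under 0.01.

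With the median shift the group medians were 1.18 (UGT1), 0.94 (UGT2), 0.33 (UGT3), 1.22 (UDP sugar supply), 0.33 (sulfotransferases), 0.51 (PAPS synthases), 0.49 (acetyl and methyl transferases) and 0.54 (minor glutathione transferases). Other medians that moved beyond the spread between animals were 0.58 with no shift and 0.36 in the authors' value table for UGT2, 1.27 with quantile normalization for UGT1, 0.35 with quantile normalization for acetyl and methyl transferases, 0.15 with no shift for PAPS synthases, and 0.18 with no shift and 0.14 with the filter on all 8 arrays for minor glutathione transferases. Without 1 array the medians ranged from 0.58 to 0.88 (UGT1), 0.43 to 0.49 (UGT2), -0.25 to -0.08 (UGT3), 0.62 to 0.85 (UDP sugar supply), -0.33 to 0.02 (sulfotransferases), -0.01 to 0.05 (PAPS synthases), -0.07 to 0.05 (acetyl and methyl transferases) and -0.065 to 0.098 (minor glutathione transferases).

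Genes that did not pass changed sign as follows. The median shift and no shift, by construction, add the same amount to every feature, and the changes relative to the median of all features stay the same. With the median shift the genes that turned were Ugt2b1 (0.48), Ugt3a1 (0.23), Ugt3a2 (0.44), Sult1b1 (0.46), Sult2a1 (0.017), Sult5a1 (0.33), Papss2 (0.23), Nat1 (0.13), Gstt1 (0.43), Gstt2 (0.13), Gstk1 (0.45), Mgst2 (0.29), Nat8f1 (0.094), Slc26a1 (0.20), Arsa (0.29) and Acy1 (0.16). With no shift these were Ugt2b1 (0.12), Ugt3a2 (0.076), Sult1b1 (0.10), Gstt1 (0.072) and Gstk1 (0.090). For the other settings the cause was not tested. Array weights turned Ugt2b1 (0.032), Tpmt (-0.011) and Mgst2 (0.084). Quantile normalization turned Sult2a1 (0.15), Nat1 (0.35), Tpmt (-0.10) and Mgst2 (0.38), normexp turned Nat1 (0.013), Tpmt (-0.11) and Mgst2 (0.095), and the authors' value table Nat1 (0.056), Tpmt (-0.10) and Mgst2 (0.096). Without 1 array the changes ranged from -0.068 to 0.034 for Ugt2b1, -0.12 to 0.012 for Ugt3a2, -0.12 to 0.071 for Sult1b1, -0.96 to 0.13 for Sult2a1, -0.33 to 0.16 for Sult5a1, -0.070 to 0.055 for Tpmt, -0.096 to 0.038 for Gstk1, -0.063 to 0.27 for Mgst1 and -0.51 to 0.18 for Mgst2. The furan and vehicle groups share no replicate number, and the paired fit that could be made was that with the slide column as a block, in which 0 features passed. Among the members the changes of Sult2a2 and Sult2a1 had the largest SE, 1.07 and 0.90, with both probes well above background on all 8 arrays. Those of Sult1e1 and Mgst2, probes near background on some arrays, followed with 0.51 and 0.39.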
